A study of Mus musculus and Homo sapiens with 75 samples.

Results

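KO-52 is a human acute myeloid leukaemia cell line with mutations on both CEBPA alleles. The comparison described here is between untreated KO-52 cells given p30, a shortened C/EBPα protein, and untreated KO-52 cells given an empty vector (EV). Its members are 6 of the 75 libraries of the series, 3 with p30 and 3 with EV, and all genes of the KO-52 count table. The cells received plasmids for p30 or p42 with a FLAG tag and green fluorescent protein (GFP), or for GFP alone as EV, by electroporation, and GFP-positive cells were sorted. The same table holds 3 libraries each of untreated p42 cells, and of EV, p30 and p42 cells given lipopolysaccharide (LPS, 100 ng/mL for 2 h). All cells thus carried the line's own mutant CEBPA alleles beneath the introduced form, and a single cell line was used. The replicates are separate samples of 1 cell line, so p-values measure the spread between such samples.

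C/EBPα is a basic leucine zipper factor that drives the maturation of granulocytes and monocytes. Translation from the first start codon of its mRNA gives p42, and translation from a later in-frame start codon gives p30, which keeps the DNA-binding domain and lacks amino-terminal transactivation elements. Many leukaemias with CEBPA mutations make p30 as their only form with an intact DNA-binding domain. The comparison of p30 with EV asks what the short form changes on top of the cell's own background.

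The 2 start sites were read from the hg38 genome on the minus strand of chromosome 19 and are shown because they define the 2 proteins. Capitals mark the start codon. The p42 site lies at chr19:33302385-33302414 and opens a frame of 358 codons. The p30 site lies at chr19:33302028-33302057, at codon 120 of the p42 frame, and opens a frame of 239 codons, so that 119 codons are missing.
p42 start: ATGgagtcggccgacttctacgaggcggag
p30 start: ATGcccgggggagcgcacgggcccccgccc

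Levels are given below as spike-in-scaled counts, the raw counts of reads on a gene divided by a factor from synthetic ERCC RNAs added to each sample. Of the 92 ERCC RNAs, the 53 with a count in every KO-52 library set the factor. Differences are log2 fold changes from edgeR's quasi-likelihood test, with p-values adjusted by the Benjamini-Hochberg method over the 21272 genes tested. Standard errors (SE) were derived as the absolute log2 fold change divided by the square root of the F statistic of that test. Calls of higher or lower genes required an adjusted p below 0.05 together with a log2 fold change above 1 or below −1. The 6 libraries held between 22101134 and 25384658 counts on genes, and spike-ins made up from 0.442% to 0.560% of counts. The 10 markers of the line were present in every library. Of these, 1 was called higher, MPO, and 9 were not called. The levels of RUNX1, PTPRC, HLA-DRA and CSF3R overlapped between the groups, and those of KIT and SPI1 did not. The progenitor marker CD34 lay between 10202 and 11929 in EV and between 5787 and 7848 in p30. The myeloid surface markers CD33 (1397 to 2240 and 2452 to 3156) and ANPEP (8294 to 11519 and 12909 to 14174) were at higher levels in p30. Of the T-cell markers, CD3E stayed between 3.96 and 21.9, whereas CD3D lay between 1681 and 2862 in EV and between 2192 and 2466 in p30. Of the 39 erythroid and megakaryocyte genes, 9 had no count in any of the 6 libraries. In a principal component analysis of log-transformed, depth-scaled counts in all 18 KO-52 libraries the second component, with 14.6% of the variance, placed the untreated EV libraries from 31.9 to 84.7, the EV libraries after LPS from −15.9 to 12.6 and the untreated p30 libraries from −33.9 to −11.0. On the first component (52.4%) the untreated EV libraries lay from −60.6 to −53.9 and the untreated p30 libraries from −45.6 to −34.8.

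Counts on the gene that was introduced did not separate the groups, although the authors report overexpression of p30 and p42 in KO-52 cells relative to an empty vector. CEBPA (chr19:33299934-33302534, minus strand) had levels of 43075, 57920 and 25511 in EV and 55034, 55139 and 50501 in p30. The groups overlapped, and the log2 fold change of 0.34 (SE 0.26) had an adjusted p of 0.50 in edgeR's test. Counts on CEBPA include the line's own transcripts and any from the plasmid, and so do not check which plasmid a library received. In untreated p42 cells the levels were 22697, 24472 and 40464.

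With p30, 726 genes were called higher (3.41% of the genes tested) and 88 were called lower (0.414%), together 3.83%. The genes that rose included 23 of 55 tested monocyte and macrophage markers and 6 of 13 tested genes on an azurophil granule list. The median log2 fold change over all tested genes was 0.15 with spike-in scaling and 0.00 with TMM, a scaling that centres most genes, under which 773 genes were called higher and 315 lower, so that the share of calls that were higher was 71.0% in place of 89.2%. Of the 726 genes, 574 were also called higher under TMM, and of the 88, 87 were also called lower. The total of 814 calls became 357 without EV replicate 1, 1486 without EV replicate 2, 388 without EV replicate 3, 441 without p30 replicate 2 and 472 without p30 replicate 3. A set of 232 higher and 11 lower genes was called the same way under TMM, under DESeq2 and in each of the 6 fits that left out 1 library, and these are named stable genes here. Among the genes given below with a value, JUNB, RELB, BCL3, CXCL10, IRF7, AZU1, CYBA, MS4A2, ITGA1, S100P, HMOX1, PTX3 and RN7SL1 were called but not stable.

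GC content moved with the fold changes. Over 17838 tested genes with a GC value (83.9%), the median log2 fold change of p30 against EV was −0.30 in the lowest of 5 equal bins of GC content and 0.67 in the highest, against −0.44 and 0.08 after LPS. The percent of genes called higher was 1.04% and 9.33% in these bins. When each library was corrected for GC content, a choice made after seeing the data, 447 genes were called higher and 46 lower, among them 396 of the 726 and 37 of the 88. Of the genes given below with a value, CEP70, JUNB, NFKB2, RELB, BCL3, IRF7, CYBA, LGALS3BP, HMOX1 and RN7SL1 lost the call in that fit. Of the stable genes, 218 of 232 higher and 10 of 11 lower genes were called in that fit.

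**Figure D1:**
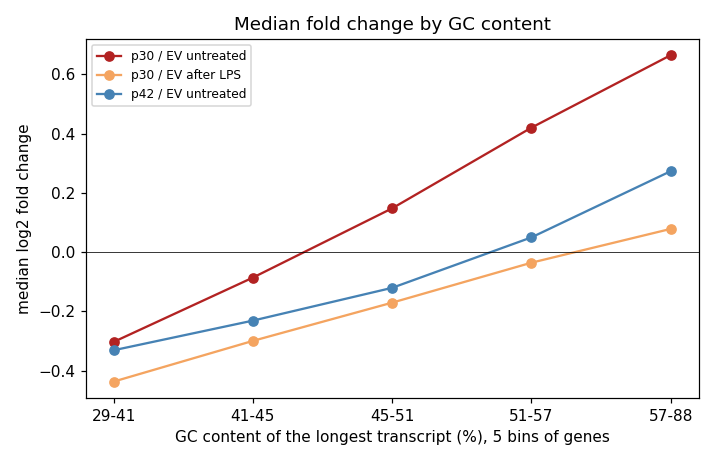
Median log2 fold change (y axis) of tested genes in 5 equal bins by the GC content of the longest transcript in percent (x axis), for p30 against EV untreated, p30 against EV after LPS and p42 against EV untreated. For p30 against EV untreated the median goes from −0.30 to 0.67, and for p30 against EV after LPS from −0.44 to 0.08. Both untreated lines use the same EV libraries.

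The largest stable rises came from genes of several kinds. SEMA6B (chr19:4542593-4581776, minus strand), a transmembrane semaphorin, had levels of 2.01, 4.29 and 1.78 in EV and 410, 668 and 735 in p30. Its log2 fold change of 7.78 (SE 0.50, adjusted p = 2.2e-51, edgeR) was the largest of the stable genes with a mean of at least 50. CD177 (chr19:43353686-43363172, plus strand), a glycoprotein of the neutrophil surface, had levels of 2.01, 6.43 and 8.03 in EV and 628, 1176 and 1275 in p30. The groups were far apart, with a log2 fold change of 7.50 (SE 0.46, adjusted p = 7.2e-55, edgeR). FCN1 (chr9:134903232-134917912, minus strand), a lectin secreted by monocytes, had 8.03, 5.36 and 23.2 in EV and 525, 798 and 873 in p30, and a log2 fold change of 5.86 (SE 0.41). MMP9 (chr20:46008908-46016561, plus strand), the gelatinase of neutrophil granules, had 3.01, 9.65 and 32.1 in EV and 479, 768 and 746 in p30, and a log2 fold change of 5.43 (SE 0.40). For each of these genes every p30 library lay above every EV library, which the rule for choosing them required.

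The other 11 of the 15 largest stable rises had log2 fold changes from 3.61 to 6.29. They were CLEC5A, a myeloid activating receptor (6.29), the complement component C3 (5.84), the metalloproteinase ADAM19 (5.82), GNLY, an antimicrobial protein of cytotoxic lymphocytes (5.23), the oxidase subunit gene NCF1 (4.30), osteopontin SPP1 (4.18), the kynureninase KYNU (4.12), NCF1C (4.10), the fatty acid receptor GPR84 (3.96), the receptor NOTCH3 (3.63) and the lysosomal protease CTSH (3.61). NCF1 and NCF1C are near-identical copies whose reads can be split between them, so their separate values are uncertain.

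The stable falls that met the same rule numbered 4. CA2, a carbonic anhydrase of the erythroid lineage, had levels of 1298, 1316 and 1383 in EV and 357, 524 and 392 in p30, with a log2 fold change of −1.65 (SE 0.32, adjusted p = 2.7e-05, edgeR). MYCT1 had 121, 101 and 112 in EV and 32.0, 25.1 and 32.9 in p30, a log2 fold change of −1.88 (SE 0.43). TNFRSF19, a member of the tumour necrosis factor receptor family, had 122, 124 and 142 in EV and 24.9, 66.0 and 25.9 in p30, a log2 fold change of −1.75 (SE 0.40). CEP70, which encodes a centrosomal protein, had 755, 671 and 733 in EV and 208, 363 and 256 in p30, and its log2 fold change was −1.39 (SE 0.32). With GC correction its adjusted p was 0.073 in edgeR. The groups did not overlap in any of the 4, which the rule for choosing them required. Over all calls, the groups did not overlap for 707 of the 726 higher and 78 of the 88 lower genes. The calls rest on the same 6 libraries, and the share over all tested genes was not counted, so these numbers are no added support.

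Short stretches of promoter are shown for 5 of these genes and for MMP8 and CEBPE, which are described further on, because they hold the letters of a C/EBP motif (TTGCNNAA) or an AP-1 motif (TGANTCA) on either strand. They come from the hg38 genome, with the start site taken from GENCODE, and capitals mark the match. The other large stable rises, the stable falls, MPO, CSF1R, CCL2 and S100A9 were also searched. They gave no match with full flanks in the 250 bases before the start. The stretches, on the gene's strand, lie at chr19:43353590-43353619 (CD177), chr2:142877518-142877547 (KYNU), chr11:102725039-102725068 (MMP8), chr19:4559799-4559827 (SEMA6B), chr20:46008818-46008846 (MMP9), chr7:75172198-75172226 (NCF1C) and chr14:23119338-23119366 (CEBPE).
CD177, C/EBP: ccaagcctccaTTTTGCAAggccctcccct
KYNU, C/EBP: aggagcacatgTTGCTTAAatttctgacag
MMP8, C/EBP: acattataaaaTTGCAAAActgtcagagtg
SEMA6B, AP-1: cgggtgttcgcTGAGTCAcaaatcctgga
MMP9, AP-1: accctgaccccTGAGTCAgcacttgcctg
NCF1C, AP-1: caggagcagctTGATTCAcccccaaaacc
CEBPE, AP-1: ctgcccctcccTGAGTCAccccaagggga

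Across windows from 250 bases before to 50 bases after the start site, the AP-1 letters were found in 8.92% of 639 genes called higher, 12.4% of 226 stable higher genes, 6.76% of 74 genes called lower and 4.92% of all 17838 genes. The C/EBP letters were found in 9.08%, 12.8%, 12.2% and 8.12% of these. The cyclic AMP response element (TGACGTCA) was found in 1.72% of genes called higher and 2.62% of all, and the C/EBP-ATF element (TGATGCAA) in 0.782% and 0.594%. Matches of different motifs overlapped in 4 of the 17838 promoters, all 4 of them C/EBP with AP-1. These shares are descriptions and were not tested.

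The gene groups below are lists written from general knowledge. They share members, so a gene such as MPO, CSF1R, CD14, CEBPE or CYBB is counted in more than 1 of them. In each, the share called higher may be read against the 3.41% of all genes, and the median log2 fold change against the 0.15 of all genes.

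Azurophil granules are the first granules made in neutrophil development. Of 13 tested genes on the azurophil granule list, 6 rose (median log2 fold change 1.05). MPO (chr17:58269855-58280935, minus strand), which encodes myeloperoxidase, had levels of 3695, 5682 and 3625 in EV and 26757, 34549 and 27409 in p30. The p30 libraries lay well above the EV libraries, with a log2 fold change of 2.77 (SE 0.30, adjusted p = 1.4e-17, edgeR). The others were PRTN3, AZU1 (3.02), RNASE2, RNASE3 (log2 fold change 2.22) and MS4A3 (2.50). RNASE2 and RNASE3 are also on the list of mast cell, basophil and eosinophil genes.

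Of 25 specific and gelatinase granule and calprotectin genes, 11 rose and 1, ANXA1, fell. MMP8 (chr11:102711796-102727050, minus strand), the neutrophil collagenase, had no count in any EV library and levels of 72.1, 55.4 and 47.9 in p30. Against a floor of 3 counts over the EV group it was at least 60.3-fold higher. S100A9 (chr1:153357854-153361023, plus strand), a subunit of calprotectin, had 3 counts in the EV group and levels of 39.2, 71.2 and 69.8 in p30, a ratio of 59.2 with an exact counting interval from 19.9 to 290. The interval covers counting error and not the spread between samples. All 3 counts were in EV replicate 1, and the fitted log2 fold change ranged from 5.18 to 8.95 when each library was left out.

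Of 55 monocyte and macrophage markers, 23 rose (median 0.90), and 14 of the 23 were stable. The summed level of this list lay between 26793 and 42236 in EV and between 53883 and 66717 in p30, and MARCO, CLEC10A, LILRB4, C1QA, C1QB and C1QC had no count in any of the 6 libraries. CSF1R, the receptor for macrophage colony-stimulating factor, had levels of 74.3, 160 and 80.3 in EV and 536, 764 and 671 in p30, a log2 fold change of 2.65 (SE 0.34). CD14, the LPS co-receptor, had 5.02, 17.1 and 10.7 in EV and 78.3, 133 and 103 in p30, a log2 fold change of 3.25 (SE 0.44). CLEC4E, a receptor for fungal and mycobacterial glycolipids, had no count in EV and 14.2, 46.2 and 32.9 in p30, at least 29.6-fold higher against the same floor. In bulk samples a larger share of cells of one kind cannot be told apart from more RNA of these genes in each cell.

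Of 8 tested subunits and regulators of the phagocyte NADPH oxidase, which makes superoxide, 4 rose. Among them were NCF1 (log2 fold change 4.30), CYBB (1.62) and CYBA (1.07). CYBA was not stable: its adjusted p ranged from 0.0096 to 0.31 when each library was left out in turn.

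Of 49 cytokines and chemokines, 17 rose (median 0.78). CCL2 (chr17:34255274-34257208, plus strand), a chemokine that attracts monocytes, had levels of 388, 487 and 838 in EV and 2418, 6360 and 5996 in p30. Its log2 fold change was 3.11 (SE 0.33, adjusted p = 2.3e-18, edgeR). IL1RN, the interleukin-1 receptor antagonist, rose by 2.97, CCL1 by 3.02 and IL1A by 2.93 on the log2 scale, and TNF, IL1B, CXCL1, CCL4 and CCL7 were among the others called. Of 63 inflammatory receptors and signalling genes, 17 rose and 2, CCR2 and HPGD, fell, and the adhesion molecule ICAM1 (2.00), the platelet-activating factor receptor PTAFR (2.15) and the feedback inhibitor SOCS3 (2.38) were among those that rose.

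Of 18 NF-kB subunits and feedback inhibitors, 5 rose (median 0.81). TRAF1, an adaptor of tumour necrosis factor receptors, had 168, 251 and 276 in EV and 780, 900 and 882 in p30, a log2 fold change of 1.88 (SE 0.32). NFKB2 (1.36), RELB (1.34), BCL3 (1.19) and TNFAIP3 were the others, of which RELB, BCL3 and TNFAIP3 were not stable. Of 51 interferon regulators and interferon-stimulated genes 7 rose, with GBP1 (1.56), OAS3 (1.31), CXCL10 (1.68) and IRF7 (1.26) among them.

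The AP-1 family, basic leucine zipper factors that pair as dimers, had 2 of its 13 members called. JUN had levels of 375, 394 and 212 in EV and 840, 1186 and 1075 in p30, a log2 fold change of 1.66 (SE 0.32, adjusted p = 2.5e-05, edgeR). JUNB had 1733, 2909 and 1317 in EV and 3549, 4519 and 4217 in p30, a log2 fold change of 1.04 (SE 0.30, adjusted p = 0.020, edgeR), and was not called under GC correction. The remaining 11 had log2 fold changes from −0.55 (ATF2) to 0.78 (FOSB), and none was called. FOS had 145, 490 and 441 in EV and 421, 555 and 524 in p30, so the groups overlapped (log2 fold change 0.48).

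Of the 7 tested C/EBP family members and relatives, 2 rose. CEBPE, a factor of late granulocyte development, had levels of 99.4, 134 and 57.1 in EV and 406, 503 and 325 in p30, a log2 fold change of 2.09 (SE 0.34, adjusted p = 2.4e-07, edgeR). CEBPD had 71.3, 103 and 53.5 in EV and 181, 322 and 244 in p30, a log2 fold change of 1.71 (SE 0.35). Of 33 myeloid transcription factors 7 rose, among them BCL6 (1.47). Of 24 genes described as C/EBPα or p30 targets, 9 rose, including NT5E, which encodes CD73, with 10.0, 12.9 and 34.8 in EV and 88.1, 148 and 146 in p30 (log2 fold change 2.69).

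Markers of other lineages moved in mixed directions. Of 24 mast cell, basophil and eosinophil genes, 5 rose and 3 fell. The 5 were the eosinophil granule gene PRG2 (1.93), the Fc receptor subunit FCER1G (1.59), CCR3, and RNASE2 and RNASE3, which were counted above. The 3 were MS4A2, CPA3 and TPSAB1, which are mast cell genes. MS4A2, the beta subunit of the IgE receptor, had levels of 309, 291 and 326 in EV and 36.5, 121 and 57.8 in p30, a log2 fold change of −2.12 (SE 0.37, adjusted p = 2.5e-06, edgeR). Under DESeq2 its adjusted p was 0.076, and none of the 3 was among the stable genes. Of 20 erythroid and megakaryocyte genes, 2 fell, CA2 among them. Of 28 lymphoid markers, 3 rose, NKG7, GNLY and IL7R, and the summed level of the list overlapped between EV (6372 to 11960) and p30 (9931 to 11430).

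Several large groups held no call. None of 69 DNA replication and mitosis genes, 56 cytosolic ribosomal protein genes, 35 MYC network and ribosome biogenesis genes, 34 endoplasmic reticulum chaperone and unfolded protein response genes, 34 stem and progenitor transcription factors or 29 cholesterol synthesis genes was called by edgeR in either direction, and their median log2 fold changes lay between −0.03 and 0.34. Of their 256 genes, 33 had an unadjusted p under 0.05 in edgeR, 0 were called by DESeq2 and 3 were called under TMM. Of all 21272 genes tested, 3880 had an unadjusted p under 0.05 in edgeR, 685 were called by DESeq2 and 1088 under TMM.

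**Figure D2:**
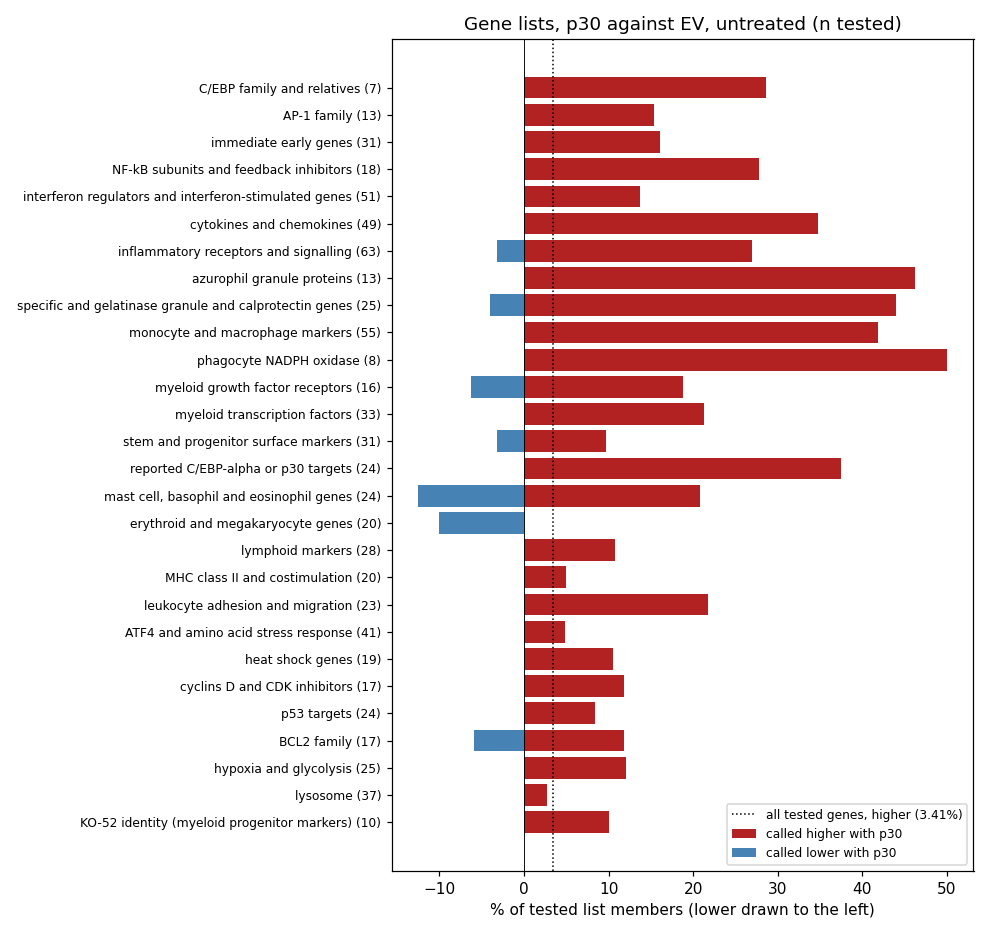
Percent of the tested members of each gene list (x axis) called higher with p30 (bars to the right) or lower (bars to the left) in untreated cells, for lists with at least 1 call, with the number of tested members in brackets. The dotted line marks the 3.41% of all tested genes that were called higher. The phagocyte NADPH oxidase list has 4 of 8 members called higher.

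The same contrast after LPS used 6 other libraries, of which the p30 columns have names that also fit samples of another cell line (HPC-7) and were taken by group. Here 215 genes were called higher (1.01%) and 75 lower (0.353%), together 1.36%. The 75 lower calls became 20 without EV replicate 1, 28 without p30 library a, 209 without p30 library b (with 187 higher) and 16 without p30 library c. Of the 726 genes higher in untreated cells, 683 (94.1%) had a positive log2 fold change after LPS, against 31.4% of all tested genes, and 190 were called higher. Of the 232 stable higher genes, 230 kept the sign and 158 were called. Of the 88 lower genes, 83 had a negative log2 fold change after LPS, against 67.7% of all tested genes, and 37 were called lower. No gene was called in opposite directions. The median log2 fold change of the 726 genes was 1.60 untreated and 0.72 after LPS. The 726 were chosen by their untreated values, which raises the untreated median. Over all tested genes the medians were 0.15 and −0.17.

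The leading genes were also chosen by their untreated values, and some had a smaller fitted log2 fold change after LPS. SEMA6B had levels of 20.4, 27.9 and 2.53 in EV and 683, 764 and 841 in p30, and its log2 fold change was 5.55, against 7.78 untreated (adjusted p of the difference 0.82, edgeR). NOTCH3 had 2.62 after LPS and 3.63 untreated. CD177 had levels of 3.40, 8.25 and 12.7 in EV and 812, 980 and 1234 in p30, a log2 fold change of 6.82. MPO had 7450, 8593 and 5048 in EV and 36013, 34036 and 31229 in p30, and a log2 fold change of 2.26. CCL2 rose by 3.09 on the log2 scale and FCN1 by 5.91. Others, such as JUN (1.03, adjusted p = 0.065, edgeR), NFKB2 (0.77) and RELB (0.43), were not called after LPS. In the test of the difference between both contrasts, 1 gene was called (0.0047%), RN7SL1, which was lower, and 748 genes had an unadjusted p under 0.05 in edgeR. DESeq2 called 0 genes there, with 690 at an unadjusted p under 0.05.

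**Figure D3:**
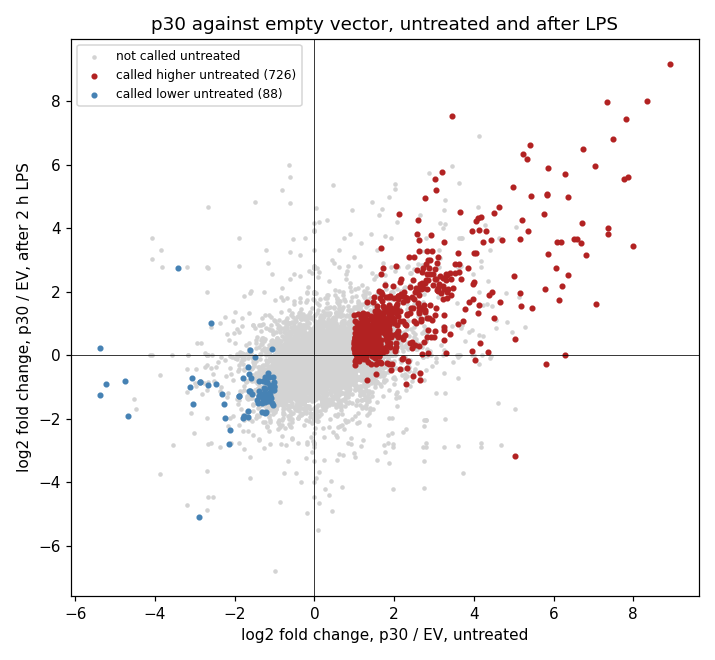
Log2 fold change of p30 against EV in untreated cells (x axis) and after 2 h of LPS (y axis) for every tested gene, with genes called in untreated cells in colour. The 2 axes share no library. Of the 726 genes called higher, 683 lie above 0 on the y axis.

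The untreated p42 libraries give the level of each gene with the full-length form, in the same table. Between p42 and p30, 1308 genes were called higher in p42 (6.15%) and 457 lower (2.15%), together 8.3%. Of the 726 genes called higher with p30 than EV, 526 were not called apart between p42 and p30. Another 110 were called higher in p42 than in p30, and 90 were called lower. Against the same EV libraries, 395 of the 726 were also called higher in p42 and 4 were called lower. Since that choice of genes uses the p30 libraries compared here, the values are given side by side as a description. CD177 had levels of 11.0, 13.5 and 21.1 in p42, far below p30, and its log2 fold change of p42 against p30 was −6.10 (SE 0.41, adjusted p = 1.2e-46, edgeR). LGALS3BP, a secreted glycoprotein, had 115, 198 and 146 in EV, 315, 534 and 482 in p30 and 33.0, 46.8 and 58.1 in p42, and CCL1 had 39.2, 39.7 and 40.2 in EV, 208, 384 and 374 in p30 and 56.4, 22.8 and 32.8 in p42. GNLY and the chemokine receptor CXCR5 were the other 2 of the 5 largest falls from p30 to p42 among genes with a mean of at least 50, with log2 fold changes of −3.08 and −3.02. MPO was also lower in p42, at 2847, 5829 and 12335, with a log2 fold change of −2.08 against p30 (SE 0.29).

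In the opposite direction, CYBB, the catalytic oxidase subunit, had 93.4, 77.2 and 104 in EV, 160, 362 and 325 in p30 and 1694, 1957 and 2709 in p42, a log2 fold change of p42 against p30 of 2.91. ITGA1 (3.61), S100P (3.59), HMOX1 (3.49) and PTX3 (3.20) completed the 5 largest rises from p30 to p42 among genes with a mean of at least 50. Below that mean, MMP8 reached 4370, 6243 and 7396 in p42 and S100A9 reached 6954, 12538 and 12261. FCN1 and MMP9 had log2 fold changes of p42 against p30 of 0.03 (SE 0.31) and 0.32 (SE 0.31), and neither was called. CA2, lower with p30, had 1474, 2580 and 4091 in p42 and a log2 fold change against p30 of 2.68 (SE 0.33).

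**Figure D4:**
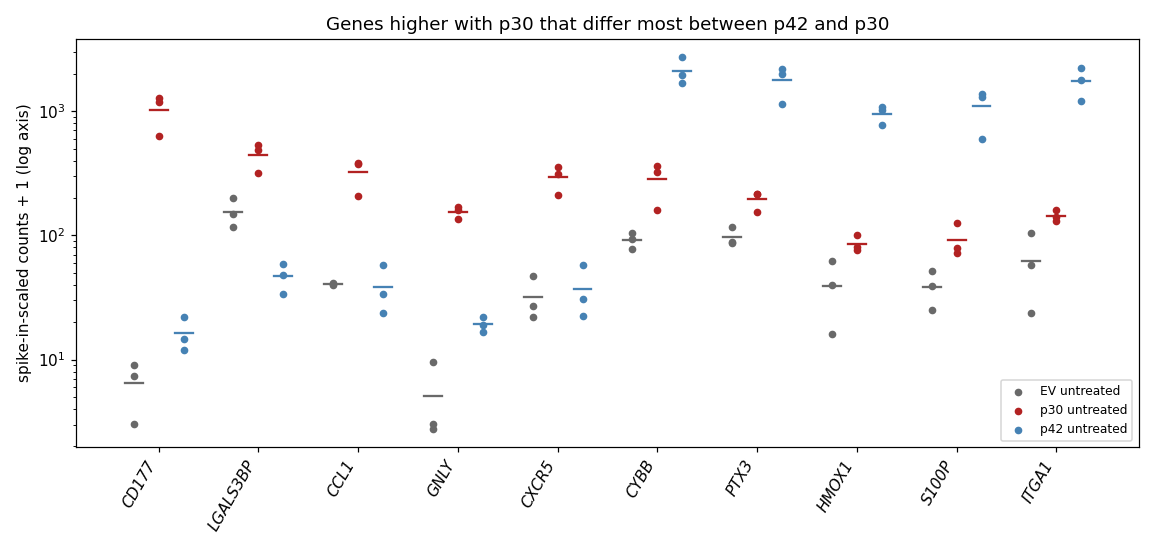
Spike-in-scaled counts plus 1 (log axis) in each untreated EV, p30 and p42 library for the 5 genes with the largest falls and the 5 with the largest rises from p30 to p42 among genes called higher with p30 than EV and with a mean of at least 50 over the EV and p30 libraries. Points are libraries and lines are means of 3. CD177 lies between 628 and 1275 in p30 and between 11.0 and 21.1 in p42.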

How the data were processed

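Poly-A RNA of KO-52 cells was sequenced in 18 libraries, in 6 groups of 3. The deposited values are raw counts of reads per gene. According to the methods and the submitters' processing notes, the authors aligned reads to hg38 with Bowtie2 2.4.4 and counted unique reads on RefSeq genes with featureCounts (Subread 2.0.3). Bowtie2 does not split reads over introns. The libraries kept strand, but whether counting used it is not given in the sources used here, so overlapping genes may share reads. The table held 59251 genes and 92 ERCC spike-ins.

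Groups came from the sample labels. The names of 6 LPS columns (p30 and p42) also match descriptions of samples of another cell line in the series, HPC-7, so only their group was used, their replicate numbers were not, and they are called a, b and c. All 18 libraries entered the main fit in edgeR 4.0.16 (R 4.3.3), with a coefficient for each group. Genes were kept by filterByExpr, and size factors were estimated by DESeq2 1.42.0 from the spike-ins. Alternatives that compared groups alone, used a replicate block or left out a library had fewer libraries. Contrasts used the two-sided quasi-likelihood F test. Scripts were tested on simulated data. Alternatives were TMM, RLE, spike-in totals, DESeq2, no low-count filter, fits of the compared groups alone, no fold threshold, a replicate block, each library left out and, added after seeing the data, a lowess correction for GC content (span 0.3). GC content, gene positions and start sites came from GENCODE on hg38, since the supplied RefSeq promoter table was for mouse.

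Named genes were CEBPA, the 13 AP-1 genes and genes called in the difference between contrasts. They included the 15 largest rises and 10 largest falls (4 were found) among stable genes. These needed a mean of at least 50, no overlap between groups and no LOC or LINC symbol. Up to 4 called members of each list were taken by smallest adjusted p. Between p30 and p42, the 5 largest rises and 5 largest falls were taken. These came from genes called higher with p30 that had a mean of at least 50. Other names were chosen after their values were seen. Genes, lists and rules were chosen with earlier results of these data known. No 2 replicates agreed within sampling noise. Some results are not reported here.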

Additional observations from a re-analysis of the deposited data

Results flagged for a closer look

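RN7SL1, the RNA component of the signal recognition particle, was the only gene called in the main fit for the difference between the LPS and untreated contrasts. Its levels were 295, 476 and 84.8 in untreated EV, 603, 925 and 607 in untreated p30, 1676, 1598 and 1090 in EV after LPS, and 757, 1032 and 740 in p30 after LPS. The difference of both log2 fold changes was −2.11 (adjusted p = 0.047, edgeR interaction test). With TMM, RLE, spike-in totals, DESeq2 or no filter RN7SL1 was not called there. This RNA is made by RNA polymerase III and has near-identical copies in the genome, so its count in poly-A libraries is uncertain. Groups of 3 libraries are too small for the test of single outlying samples.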

How the results depend on the processing

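The total of 814 calls for p30 against EV untreated became 493 with GC correction and ranged from 357 to 1486 when each library was left out. The 726 higher calls became 469 with spike-in totals and 447 with GC correction, and ranged from 325 to 1365 when each library was left out. The 88 lower calls became 315 with TMM, 325 with RLE, 54 without a filter, 46 with GC correction and 161 with only the groups compared, and ranged from 26 to 121 when each library was left out. The 290 calls after LPS ranged from 199 to 396 over all alternatives. The single call in the difference between contrasts became 0 with TMM, RLE, spike-in totals, DESeq2 and no filter, and 2 with GC correction. The counts for p42 against p30 and p42 against EV stayed within 1.5 times. Causes were not tested.

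Deviations of same-numbered EV and p30 libraries from their group means correlated at 0.0047, −0.34 and 0.21. Differently numbered ones correlated at values from −0.44 to 0.47. Deviations within a group of 3 depend on each other, so these values cannot decide whether the samples were paired. With the replicate block the 9 untreated libraries gave 852 calls, and 827 without it.

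Of the named genes, the log2 fold change reversed with GC correction for CEBPA (−0.27), FOSL1 (−0.031), FOSL2 (−0.083), JUND (−0.039), ATF4 (−0.099) and BATF (−0.23), none of them called. BATF3, also not called, reversed with TMM (−0.029) and RLE (−0.033), and without single libraries its value ranged from −0.12 to 0.49. In 90 of the 618 comparisons that left out a library, and 84 of the 924 others, a named gene lost its call with the same direction.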
